A study of Mus musculus with 9 samples.

Results

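The early response genes of the Egr, Nr4a and Ier families were followed in hair follicle stem cells of young and aged mice. The members were the rows of the deposited expression table that carry the symbols Egr1, Egr2, Egr3, Nr4a1, Nr4a2, Nr4a3, Ier2, Ier3 and Ier5, 9 of 37980 rows, and each symbol had 1 row. RNA came from male C57BL/6J mice aged 3, 19 or 24 months, and each age had 3 of the 9 libraries; the labels name no other genotype and no treatment. Keratinocytes of the back and belly were sorted for high CD49f, an integrin of basal keratinocytes, and for CD34, a surface protein of the follicle bulge. Whether replicates stem from different mice is not labelled, so each p-value measures the spread between libraries, which may be technical. The 3-month and 19-month libraries cannot all have shared 1 pool, since 2 barcodes of the 3-month libraries recur at 19 months. Which libraries were pooled together is not known here. A difference of pool can therefore not be told apart from age in any comparison between ages.

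Early response genes are transcribed within minutes of a stimulus such as a growth factor, stretch, wounding or the handling of tissue, without new protein synthesis, and their messengers decay fast. The Egr genes encode zinc-finger transcription factors that bind GC-rich DNA. The Nr4a genes encode orphan nuclear receptors that bind DNA without a known hormone. The Ier genes encode proteins named for their fast induction. Serum response factor binds the CArG box, and CREB binds the cyclic AMP response element. Both are known to act on promoters of many early response genes.

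Promoter windows show which of these elements the members carry near their start sites. Windows of 300 bases, 250 before and 50 after an annotated start, were taken from the RefSeq table for 6 of the 9 members (build GRCm38.p6). No window was found for Egr3 and Ier2. Egr1 was left out of the search, so which elements its promoter carries is not known here. Those of the 3 Nr4a genes and of Egr2 are printed because they hold the elements, 5′ to 3′ on the gene's strand. Capitals mark the CREB half-site, searched as TGACG on both strands and so also printed as CGTCA, and the CArG box.
Nr4a1 (chr15:101266596-101266895, plus strand): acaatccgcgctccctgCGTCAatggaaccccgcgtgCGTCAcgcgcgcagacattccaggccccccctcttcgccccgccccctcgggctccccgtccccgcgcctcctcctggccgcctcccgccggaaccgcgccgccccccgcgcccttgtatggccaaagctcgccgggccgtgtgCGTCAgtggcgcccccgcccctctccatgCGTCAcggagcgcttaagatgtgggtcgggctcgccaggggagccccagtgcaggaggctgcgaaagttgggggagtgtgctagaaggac
Nr4a2 (chr2:57123954-57124253, minus strand): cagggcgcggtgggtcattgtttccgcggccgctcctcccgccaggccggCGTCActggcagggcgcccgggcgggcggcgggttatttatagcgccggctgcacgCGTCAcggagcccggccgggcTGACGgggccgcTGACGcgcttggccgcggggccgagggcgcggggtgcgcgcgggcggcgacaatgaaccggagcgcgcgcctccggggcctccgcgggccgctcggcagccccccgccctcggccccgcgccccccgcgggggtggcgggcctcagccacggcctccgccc
Nr4a3 (chr4:48045055-48045354, plus strand): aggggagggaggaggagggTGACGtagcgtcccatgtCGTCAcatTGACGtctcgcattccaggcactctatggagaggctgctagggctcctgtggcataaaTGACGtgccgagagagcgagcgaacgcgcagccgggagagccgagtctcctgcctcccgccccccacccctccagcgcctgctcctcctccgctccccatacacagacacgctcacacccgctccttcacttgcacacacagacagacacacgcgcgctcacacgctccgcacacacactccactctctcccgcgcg
Egr2 (chr10:67537619-67537918, plus strand): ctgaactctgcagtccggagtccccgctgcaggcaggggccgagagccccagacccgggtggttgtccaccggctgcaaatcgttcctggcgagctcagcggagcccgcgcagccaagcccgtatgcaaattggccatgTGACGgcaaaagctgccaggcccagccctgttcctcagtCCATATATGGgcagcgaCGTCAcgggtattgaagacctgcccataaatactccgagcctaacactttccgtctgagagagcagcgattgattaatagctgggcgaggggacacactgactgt
Each Nr4a window held 4 half-sites. A window with 4 or more was found in 0.231% of the 32851 windows of that length in the table, and one with any half-site in 20.8%. The half-sites began 233, 213, 69 and 40 bases before the start of Nr4a1. In Nr4a2 they began 200, 144, 123 and 111 bases before it, and in Nr4a3 231, 213, 205 and 147 bases before it. The Egr2 window, chosen among 5 windows of that gene for its number of matches, held 2 half-sites, 111 and 55 bases before the start, and 1 CArG box 72 bases before it, a box present in 1.63% of windows. The windows of Ier3 and Ier5 held neither element. None of the 6 windows held the full CREB element TGACGTCA, which contains a half-site on each strand (1.79% of windows), the Nr4a monomer site AAAGGTCA (1.51%), the Egr site GCGTGGGCG (0.612%) or the AP-1 site TGANTCA (7.81%), all searched on both strands. The TATA sequence TATAAA, searched the same way and present in 13.6% of windows, was found in Nr4a2 alone, on the strand opposite to the gene, 164 bases before the start. These matches describe the letters of the windows and not binding.

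Levels are given in FPKM, fragment counts scaled to transcript length and to the mapped fragments of a library. The values were tested with limma on log2(FPKM + 1) over all 14275 rows that reached 1 FPKM in at least 3 libraries, with Benjamini-Hochberg adjustment over those rows and a threshold of 0.05, referred to as the main fit. The same model on the 11509 protein-coding genes among them is the protein-coding fit and was known beforehand to make more calls. Of the 9 members, 6 entered these fits. Egr1, Egr2, Nr4a1, Ier2 and Ier3 reached 1 FPKM in 9 of 9 libraries and Nr4a2 in 8 of 9, so no age by itself brought a member in. Egr3, Nr4a3 and Ier5 were too low, and their tests come from a fit without the filter.

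The values themselves carry a trace of the sequencing depth. In long genes with a single transcript, FPKM times length peaked at whole multiples of 1 fragment, which put the libraries at about 23500000 to 34900000 fragments, if each was scaled to its own mapped fragments. In 6 libraries the same fragment steps lined up, with 29.0% to 40.0% of low rows at a common ratio between any 2 of them. The steps of 19 months replicate 1 and 24 months replicate 2 lined up with each other (33.0%) but at most 6.5% of low rows did so with any other library, and those of 3 months replicate 1 lined up with none (at most 9.63%). Results are therefore also given for the 6 libraries alone, a choice made after the values were seen.

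Transcripts of the sorted population were present, and some of its markers differed with age. Cd34 lay between 403 and 632 FPKM over the 9 libraries, Itga6, which encodes CD49f, between 72.7 and 116 FPKM, and the basal keratin Krt14 between 3235 and 6619 FPKM. Krt5 was listed at 0 in every 19-month library. As 36 rows of the table share such a pattern of zeros through an age beside 5 FPKM or more through another, these zeros may be failed estimates. Krt15, a bulge keratin, was listed at 0 in every library and is not among those 36 rows. Whether its zeros are failed estimates as well cannot be told from these values. Of 10 bulge markers, 8 entered the protein-coding fit. Lgr5, a receptor of bulge and germ stem cells, was called lower at 24 months (59.3 ± 7.09 FPKM) than at 3 months (120.8 ± 17.6 FPKM; log2 change -1.01, adjusted p = 0.00581), and at 0.0724 did not pass the main fit. The bulge factors Nfatc1 (log2 change 0.78, adjusted p = 0.0264) and Sox9 (0.66, adjusted p = 0.0349) were called higher at 19 than at 3 months. The part of these differences in the members' values was not tested. No member was listed at 0 in any library.

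Of the 6 tested members, Egr1, Nr4a1, Nr4a2 and Ier3 stood higher in every 24-month than in any 3-month library, as did 10.3% of all tested rows. Their mean FPKM was 2.43- to 3.36-fold higher. None of the 6 passed the main fit in any comparison. In the protein-coding fit Egr1, Nr4a1, Nr4a2 and Ier3 were called higher at 24 than at 3 months, where 3.84% of all its rows were called in either direction. No member was called at 19 against 3 or at 24 against 19 months, where 1.56% and 0.93% of rows were. Egr2 was the one tested member with a lower mean at 24 than at 3 months, and Ier2 overlapped between all ages. Ier5, too low for the fits, also stood higher in every 24-month than in any 3-month library and had its highest mean at 19 months.

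Among the zinc-finger factors, Egr1 (ENSMUSG00000038418), which is induced by growth factors and injury in many tissues, was by far the most abundant. It stood at 39.8, 60.3 and 53.8 FPKM in the 3-month libraries, at 124.7, 74.2 and 64.0 FPKM in the 19-month libraries and at 192.4, 178.1 and 115.1 FPKM in the 24-month libraries. Every 24-month and every 19-month library lay above all 3-month libraries, while the older ages overlapped, since 19 months replicate 1 exceeded 24 months replicate 4. The means were 51.3 ± 10.5, 87.6 ± 32.5 and 162 ± 41.1 FPKM at 3, 19 and 24 months (± SD, 3 libraries per age). Set against 3 months, 24-month Egr1 was 3.15-fold higher in mean FPKM, with a log2 change of 1.62 ± 0.30 (SE; 95% confidence interval 0.94 to 2.31) and an adjusted p of 0.0700 in the main fit. The protein-coding fit gave the same change with an SE of 0.24 and an adjusted p of 0.00337, and the call held in each of the 9 fits that left out a library, with a highest adjusted p of 0.0160. At 24 against 19 months the log2 change was 0.90 ± 0.30 (adjusted p = 0.360 in the main fit and 0.0923 in the protein-coding fit). At 19 against 3 months it was 0.72 ± 0.30 (adjusted p = 0.345 and 0.148). In the 6 libraries with aligned steps the change at 19 against 3 months was 0.27, and 19 months replicate 1, the highest of its age, is one of those left out.

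Egr2 (ENSMUSG00000037868), known for its part in hindbrain patterning and myelination and as a marker of hair shaft progenitors in mouse skin, ran far below Egr1. Its values were 8.71, 10.6 and 9.31 FPKM at 3 months, 6.04, 7.56 and 9.35 FPKM at 19 months and 9.48, 4.20 and 4.39 FPKM at 24 months. The ages overlapped in all 3 comparisons, because 24 months replicate 2 stood with the 3-month libraries while the other 24-month libraries lay below every other library. The log2 change at 24 against 3 months was -0.66 ± 0.28 (adjusted p = 0.255 in the main fit and 0.129 in the protein-coding fit). It was -0.36 at 24 against 19 months and -0.30 at 19 against 3 months (adjusted p = 0.686 and 0.668 in the main fit). With the 6 aligned libraries alone, which leave out that replicate, the change was -1.05 and the protein-coding fit called it lower (adjusted p = 0.0179), as it did at 24 against 19 months (-0.83, adjusted p = 0.0430). Of the 9 protein-coding fits that left out 1 library, 1 called Egr2 at 24 against 3 months, with an adjusted p of 0.0181.

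Egr3 (ENSMUSG00000033730), an Egr factor known from muscle spindles and lymphocytes, was near the lower end of detection. It stood at 0.654, 0.788 and 0.506 FPKM at 3 months, at 0.399, 0.490 and 0.383 FPKM at 19 months and at 0.745, 0.390 and 0.0523 FPKM at 24 months. All 19-month libraries lay below all 3-month libraries, and the 24-month libraries spanned the range of the other ages. In the fit without the filter the log2 change at 19 against 3 months was -0.21 ± 0.17 (adjusted p = 0.710). The value of 24 months replicate 4 corresponds to between 0.725 and 5.84 fragments, depending on the transcript. The highest value corresponds to between 9.25 and 74.5 fragments. The log2(FPKM + 1) scale understates changes at levels this low, and the part of depth in this result was not tested. Egr4, the remaining gene of the family, was listed at 0 in 8 of 9 libraries and reached 0.0225 FPKM in the other.

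**Figure D1:**
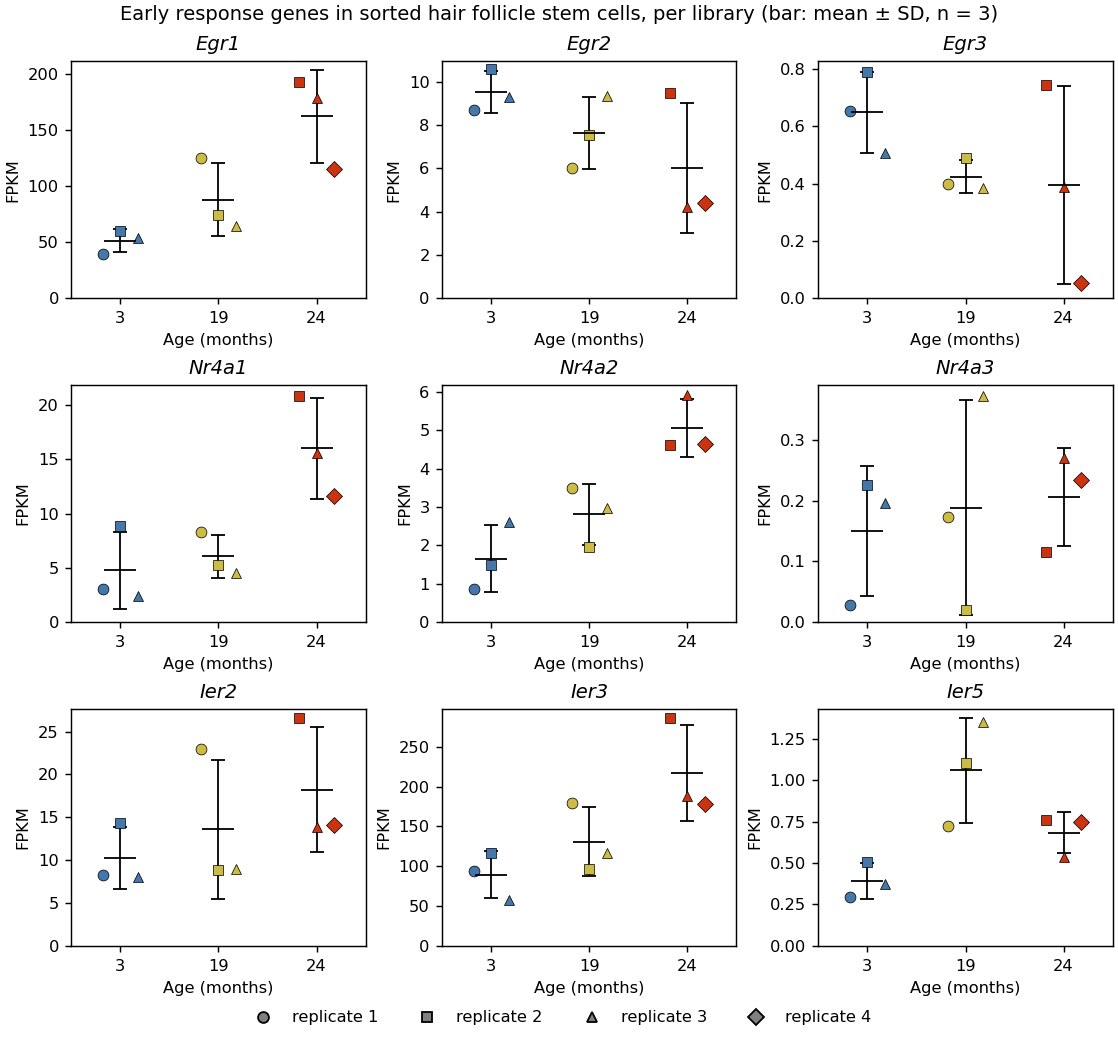
FPKM (vertical axis) of each member in each library against age in months; symbols give the replicate number, and the bar with whiskers the mean ± SD of 3 libraries. Egr1, Nr4a1, Nr4a2, Ier3 and Ier5 have all 24-month libraries above all 3-month libraries. Egr2 has a lower mean at 24 than at 3 months, and its libraries overlap between all ages. Ier5 has its highest mean, 1.06 FPKM, at 19 months.

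Of the nuclear receptors, Nr4a1 (ENSMUSG00000023034), also called Nur77 and known for its fast induction in lymphocytes and metabolic tissues, had the largest ratio of 24- to 3-month means among the members. It stood at 3.09, 8.84 and 2.39 FPKM at 3 months, at 8.35, 5.28 and 4.56 FPKM at 19 months and at 20.9, 15.6 and 11.6 FPKM at 24 months. The 24-month libraries lay above all 6 others, and the 3- and 19-month libraries overlapped because 3 months replicate 2 exceeded all of 19 months. The means were 4.77 ± 3.54, 6.06 ± 2.01 and 16.03 ± 4.66 FPKM at 3, 19 and 24 months. The ratio of means at 24 against 3 months was 3.36 and the log2 change 1.69 ± 0.41 (adjusted p = 0.105 in the main fit and 0.0121 in the protein-coding fit). The protein-coding call held in each of the 9 fits without a library, closest to the threshold without 3 months replicate 3 (adjusted p = 0.0460), and was lost in the 6 aligned libraries (log2 change 1.32, adjusted p = 0.0753). Between 24 and 19 months the log2 change was 1.27 ± 0.41 (adjusted p = 0.358 and 0.0849), and at 19 against 3 months it was 0.42 ± 0.41 (adjusted p = 0.687 in the main fit).

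Nr4a2 (ENSMUSG00000026826), or Nurr1, best known for its need in dopamine neurons, had less relative spread at 24 months than the other called members. Its values were 0.862, 1.49 and 2.60 FPKM at 3 months, 3.51, 1.95 and 2.98 FPKM at 19 months and 4.61, 5.93 and 4.64 FPKM at 24 months. As with Nr4a1, the 24-month libraries lay above all others while 3 and 19 months overlapped. The means were 1.65 ± 0.879, 2.81 ± 0.793 and 5.06 ± 0.751 FPKM. The log2 change at 24 against 3 months was 1.24 ± 0.26 (adjusted p = 0.0822 in the main fit and 0.0112 in the protein-coding fit), on a scale that understates changes at levels this low; the ratio of means was 3.06. Without 3 months replicate 2 the protein-coding fit gave an adjusted p of 0.0515, and the other 8 such fits called it. The log2 change was 0.68 ± 0.26 at 24 against 19 months (adjusted p = 0.415 in the main fit) and 0.55 ± 0.26 at 19 against 3 months (adjusted p = 0.386).

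Nr4a3 (ENSMUSG00000028341), or Nor1, the third receptor, stayed below 0.4 FPKM in every library. It stood at 0.0281, 0.225 and 0.196 FPKM at 3 months, at 0.173, 0.0191 and 0.372 FPKM at 19 months and at 0.116, 0.270 and 0.233 FPKM at 24 months. The ages overlapped throughout, and the lowest value corresponds to between 0.598 and 3.82 fragments. Without the filter the log2 change at 24 against 3 months was 0.07 ± 0.12 (95% confidence interval -0.20 to 0.35; adjusted p = 0.837). At this depth the overlap of its libraries cannot be set against the separation seen in Nr4a1 and Nr4a2. A link between the half-sites and age was not tested.

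Ier3 (ENSMUSG00000003541), or Iex-1, a short-lived protein linked to NF-kappaB and to cell survival, was the most abundant member in every library. It stood at 94.2, 116.2 and 58.0 FPKM at 3 months, at 179.8, 97.0 and 116.4 FPKM at 19 months and at 286.6, 188.3 and 177.7 FPKM at 24 months. The 24-month libraries lay above all 3-month libraries; 19 months overlapped with both, its replicate 1 lying just above the lowest 24-month library. The means were 89.5 ± 29.4, 131 ± 43.3 and 218 ± 60.1 FPKM. Between 24 and 3 months the ratio of means was 2.43 and the log2 change 1.29 ± 0.33 (adjusted p = 0.116 in the main fit and 0.0131 in the protein-coding fit). Of the protein-coding fits that left out a library, 8 of 9 called it, and without 24 months replicate 2 the adjusted p was 0.0511. The change was 0.74 ± 0.33 at 24 against 19 months (adjusted p = 0.470 in the main fit) and 0.55 ± 0.33 at 19 against 3 months (adjusted p = 0.480).

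Ier2 (ENSMUSG00000053560), a nuclear protein of the early response to serum, had 1 library well above the others at each age. Its values were 8.26, 14.4 and 8.01 FPKM at 3 months, 23.0, 8.90 and 8.93 FPKM at 19 months and 26.6, 13.9 and 14.1 FPKM at 24 months. These were 3 months replicate 2, 19 months replicate 1 and 24 months replicate 2, and the ages overlapped in all 3 comparisons. At roughly 341 to 1028 fragments per library, counting error was at most 5.42%. The log2 change at 24 against 3 months was 0.76 ± 0.41 (adjusted p = 0.364 in the main fit and 0.188 in the protein-coding fit), and at 24 against 19 months 0.47 ± 0.41 (adjusted p = 0.731 in the main fit). At 19 against 3 months it was 0.29 ± 0.41 (adjusted p = 0.785), and its sign turned to -0.13 without 19 months replicate 1 and to -0.25 in the 6 aligned libraries.

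Ier5 (ENSMUSG00000056708), known to act with the phosphatase PP2A on the heat shock factor HSF1, was the one member with its highest mean at 19 months. It stood at 0.293, 0.508 and 0.374 FPKM at 3 months, at 0.724, 1.10 and 1.35 FPKM at 19 months and at 0.759, 0.539 and 0.747 FPKM at 24 months. Both older ages lay above all 3-month libraries and overlapped each other. The means were 0.392 ± 0.108, 1.06 ± 0.317 and 0.682 ± 0.124 FPKM, a ratio of 2.71 at 19 against 3 months. In the fit of 25065 rows without the filter the log2 change at 19 against 3 months was 0.56 ± 0.13 (adjusted p = 0.239). For 24 against 3 months it was 0.27 ± 0.13 (adjusted p = 0.427) and at 24 against 19 months -0.28 ± 0.13 (adjusted p = 0.628). These values rest on about 27.5 to 134 fragments per library, with a counting error of 8.65% to 19.1%. Ier5l, the Ier5-like gene, stayed between 0.173 and 0.700 FPKM.

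The order of the members by FPKM was stable at the top and varied below it. Ier3 ranked first and Egr1 second in all 9 libraries. Egr2, Ier2, Nr4a1 and Nr4a2 followed in changing order, with Nr4a1 above Egr2 in every 24-month library and below it in every 3-month library. Egr3, Nr4a3 and Ier5 took the lowest places throughout.

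Over the families, 0 of the 6 tested members passed limma in the main fit at 19 against 3, 24 against 3 or 24 against 19 months, where 0.28%, 0.203% and 0.049% of all tested rows did, and 0 of 6 passed the F test for any age (0.224% of rows). At an unadjusted p under 0.05 there were 1, 5 and 3 of 6, against 14.0%, 18.6% and 10.7% of all rows, and in the protein-coding fit 3, 6 and 4 of 6, against 15.7%, 21.6% and 12.8%. With protein-coding rows the calls were 0, 4 and 0 of 6 (background 1.56%, 3.84% and 0.93%) and in the F test 4 of 6 (4.54%). Fits of those rows without 1 library called 0 members at 19 against 3 months, 3 to 4 at 24 against 3 months and 2 to 4 in the F test, where Nr4a2 was called in 5 of 9. At 24 against 19 months they called Egr1 and Nr4a1 without 19 months replicate 1, Nr4a1 without 3 months replicate 2, and none otherwise. Over the same fits the calls among all protein-coding rows, 180, 442 and 107 with every library, ranged from 69 (without 3 months replicate 1) to 230, from 136 (without 24 months replicate 4) to 456 and from 20 (without 19 months replicate 2) to 216 (without 24 months replicate 2). A robust prior in the main fit called 0, 2 and 0 of 6, where it called 0.504%, 1.57% and 0.189% of rows, and 0 of 6 for any age (1.06%); the 2 were Egr1 and Nr4a2. The 6 aligned libraries in the protein-coding fit gave 0, 4 and 2 of 6 (1.09%, 3.27% and 2.67%) and 3 of 6 for any age (4.54%): Egr1, Nr4a2 and Ier3 higher and Egr2 lower at 24 against 3 months, and Egr1 higher and Egr2 lower at 24 against 19 months. The comparisons share libraries, so their counts do not stand as separate lines of evidence.

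**Figure D2:**
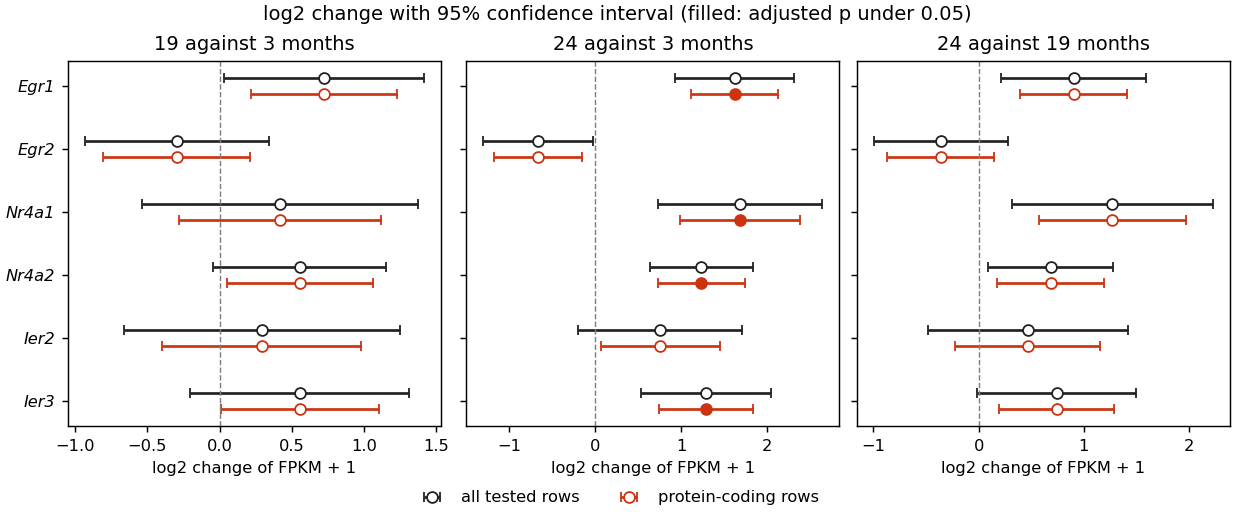
log2 change of FPKM + 1 (horizontal axis) with its 95% confidence interval for the 6 tested members in each comparison, in the fit of all tested rows (dark) and of protein-coding rows (red); filled symbols have an adjusted p under 0.05. Filled symbols occur for Egr1, Nr4a1, Nr4a2 and Ier3 at 24 against 3 months in the protein-coding fit only; the changes are the same in both fits and the intervals narrower in the protein-coding one.

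The median log2 change of the 6 tested members was 0.49, 1.27 and 0.71 at 19 against 3, 24 against 3 and 24 against 19 months, and that of all tested rows lay between -0.01 and 0.0024. Egr2 was below 0 and the other 5 above it in all 3 comparisons. In the 6 aligned libraries the median at 19 against 3 months was 0.11. Of the tested members 4, Egr1, Nr4a1, Nr4a2 and Ier3, had every 24-month library above every 3-month library, as did 10.3% of all rows. Egr1 had every 19-month library above every 3-month library (10.5% of rows), and Nr4a1 and Nr4a2 had every 24-month library above every 19-month library (7.85% of rows). No tested member had its older libraries entirely below its younger ones, which 10.9%, 11.0% and 9.44% of rows did.

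Within an age, the members tended to be high in the same library. The highest value of an age fell in 3 months replicate 2 for 8 of the 9 members. It fell in 19 months replicate 1 for 5 and in 24 months replicate 2 for 7. Of 11504 protein-coding rows with distinct symbols, 4482, 3830 and 3234 had their highest value of the age in these libraries. Over the 6 tested members, the median difference from the other 2 libraries of the age was 0.51 in 3 months replicate 2, 0.71 in 19 months replicate 1 and 0.62 in 24 months replicate 2, on the log2(FPKM + 1) scale. Protein-coding rows gave medians between -0.07 and 0.05 in all 9 libraries. Among those libraries, 19 months replicate 1 and 24 months replicate 2, are the pair whose fragment steps line up with each other alone; its part in these values was not tested. Of the tested members, Egr2 was the exception at 19 months, where replicate 1 held its lowest value, as it did for Ier5, and Nr4a2 had its highest value in replicate 3 at 3 and 24 months.

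**Figure D3:**
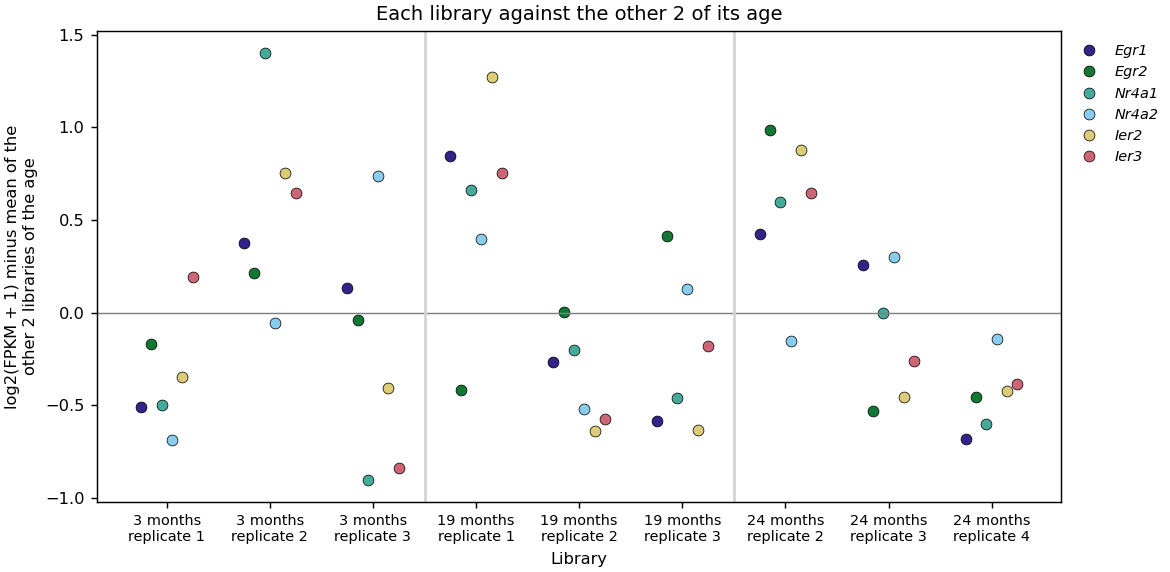
For each library (horizontal axis), log2(FPKM + 1) of the 6 tested members minus the mean of the other 2 libraries of that age (vertical axis); each colour is a gene. Most members lie above 0 in 3 months replicate 2, 19 months replicate 1 and 24 months replicate 2, with medians of 0.51, 0.71 and 0.62, while Egr2 lies below 0 in 19 months replicate 1.

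Other early response genes, a list of 50 with 45 tested that holds the AP-1, Klf, Dusp and Ccn genes among others, were set beside the members. Their median log2 change was -0.13 at 19 against 3 months, 0.46 at 24 against 3 months and 0.56 at 24 against 19 months, with 18, 38 and 41 of 45 above 0. In the main fit 1 of 45 was called at 19 against 3 months, Ctgf, a matrix protein gene controlled by YAP and serum response factor, which fell to 67.5 ± 7.60 FPKM at 19 months, against 145 ± 15.9 FPKM at 3 months (log2 change -1.09 ± 0.15, adjusted p = 0.0370). None of the 45 passed the main fit in the other comparisons, where 17 and 21 had an unadjusted p under 0.05, against 18.6% and 10.7% of all rows. The smallest p-values at 24 against 3 months were those of Btg2, an antiproliferative gene (log2 change 0.80, adjusted p = 0.0809), and Klf2 (0.59, adjusted p = 0.0957). At 24 against 19 months they were those of Ctgf (1.10, adjusted p = 0.0923) and the clock gene Per1 (1.12, adjusted p = 0.113).

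The protein-coding fit called 8 of the 45 higher and none lower at 24 against 3 months. Over all 11509 rows of that fit, 173 were called higher and 269 lower in that comparison. The numbers were 82 and 25 at 24 against 19 months, and 69 and 111 at 19 against 3 months. Fos, the AP-1 subunit, had the largest change, with 319 ± 143 FPKM at 24 months and 77.6 ± 38.6 FPKM at 3 months (log2 change 2.05 ± 0.39, adjusted p = 0.0104). Cyr61, a Ccn matrix protein (1.34, adjusted p = 0.0231), Dusp1, a phosphatase of MAP kinases (1.10, adjusted p = 0.0131), and Klf4 (0.97, adjusted p = 0.0477) followed. At 24 against 19 months it called 10 higher and none lower, led by Cebpd (1.79, adjusted p = 0.00618), Cyr61 (1.65, adjusted p = 0.0208), Dusp6 (1.31, adjusted p = 0.0403) and Dusp1 (1.23, adjusted p = 0.0187). At 19 against 3 months it called 2 lower and none higher, Per1 (-1.11, adjusted p = 0.00429) and Ctgf (-1.09, adjusted p = 0.00139). Without 19 months replicate 1 it called 5 lower at 19 against 3 months, Dusp6, Errfi1 and Jun besides, and without 24 months replicate 2 it called Errfi1 lower and Klf10 higher as well. Leaving out a library moved the counts of higher calls to between 2 (without 3 months replicate 3) and 9 at 24 against 3 months and to between 2 (without 19 months replicate 2) and 12 at 24 against 19 months, and the 6 aligned libraries gave 7 and 13 higher. Gadd45g was called lower at 24 against 3 months without 24 months replicate 2, and at 24 against 19 months in the 6 aligned libraries. No other of these fits called a gene of the list lower in either comparison. The median of this list at 19 against 3 months was thus below 0 and that of the members above it, a difference that was not tested. By library, the list's median difference from the other libraries of the age was 0.14 in 3 months replicate 2, 0.31 in 19 months replicate 1 and 0.03 in 24 months replicate 2.

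Genes of the factors that drive early response genes, and of their corepressors, were called in neither fit. Of 22 such genes, all tested, among them Srf, the Elk factors, Creb1 and its coactivators, the ERK kinases and the Egr corepressors Nab1 and Nab2, limma called 0 in either fit and any comparison, with 3, 4 and 3 at an unadjusted p under 0.05 in the main fit and 2, 1 and 2 in the protein-coding fit. Their medians lay between -0.02 and 0.01. Srf itself stood at 6.71 ± 0.209 FPKM at 24 months and 5.07 ± 0.252 FPKM at 3 months (log2 change 0.34, adjusted p = 0.206 in the main fit), and Crtc1, a CREB coactivator, at 3.04 ± 1.52 FPKM at 24 months and 5.62 ± 0.599 FPKM at 3 months (-0.77, adjusted p = 0.170). Without 24 months replicate 2 alone, and in the 6 aligned libraries, the protein-coding fit called Crtc1 lower at 24 against 3 months. The smallest p-values at 19 against 3 months were those of the kinases Rps6ka1 (0.33, adjusted p = 0.224) and Mapk3 (0.43, adjusted p = 0.296), and at 24 against 19 months those of Srf (0.47, adjusted p = 0.274) and Elk4 (0.34, adjusted p = 0.442).

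Of 11 genes known as Egr targets, 7 were tested and 0 were called by limma in either fit, with 2, 3 and 1 at an unadjusted p under 0.05 in the main fit and 3, 2 and 1 in the protein-coding fit. Above 0 were 3 of 7 at 24 against 3 months. Nab2, which Egr1 induces and which represses it in turn, stood at 4.52 ± 0.826 FPKM at 24 months and 3.36 ± 0.229 FPKM at 3 months (log2 change 0.33, adjusted p = 0.230), and the adhesion gene Icam1 at 7.67 ± 0.772 FPKM at 24 months and 12.5 ± 2.38 FPKM at 3 months (-0.62, adjusted p = 0.176). The smallest p-values at 19 against 3 months were those of Pdgfb (0.56, adjusted p = 0.313) and F3 (0.83, adjusted p = 0.348), and at 24 against 19 months those of Cd44 (-0.44, adjusted p = 0.425) and Icam1 (-0.29, adjusted p = 0.651). The 6 aligned libraries gave calls for Thbs1, lower at 19 than at 3 months, and Cd44, lower at 24 than at 19 months.

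Heat shock genes, chaperones induced by heat and damaged protein, were all tested, 14 of 14, with a median log2 change of 0.03 in each comparison. The main fit called 0 of them, with 0, 1 and 2 at an unadjusted p under 0.05. In the protein-coding fit 1 was called, Hspa1b, at 9.43 ± 2.57 FPKM at 24 months and 4.72 ± 0.164 FPKM at 3 months (log2 change 0.83, adjusted p = 0.0291); its copy Hspa1a is nearly identical, so reads may be split between the genes and both values are uncertain. The call was lost without any of the 3-month libraries, without 24 months replicate 2 or 4, and in the 6 aligned libraries.

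**Figure D4:**
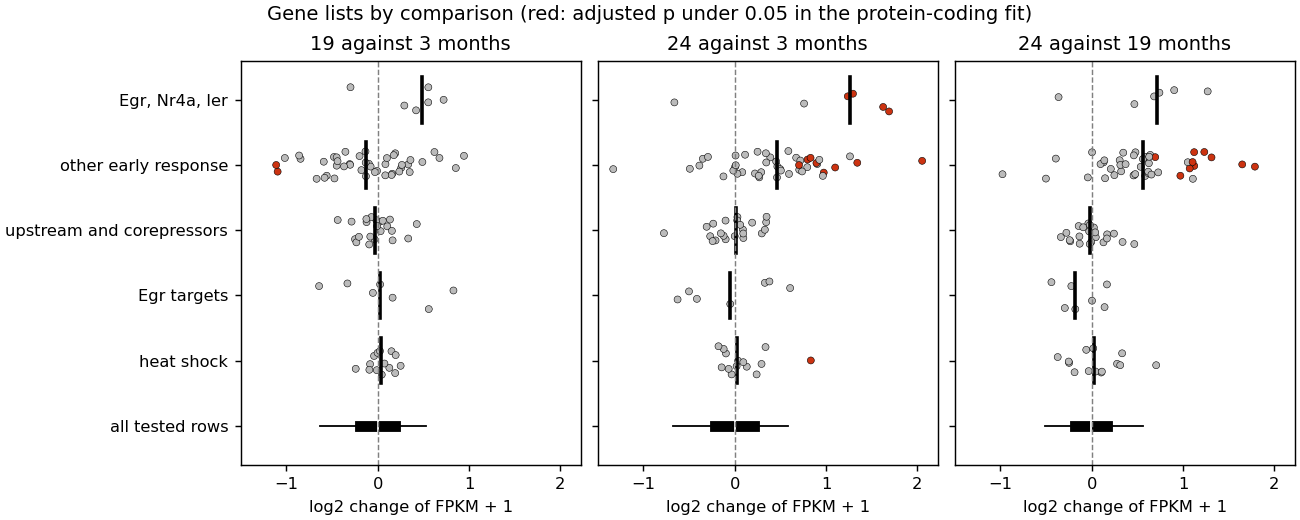
log2 change of FPKM + 1 (horizontal axis) of every tested gene of 5 lists in each comparison, with the median as a black bar; red points have an adjusted p under 0.05 in the protein-coding fit, and the lowest line shows the quartiles (thick) and the 5% to 95% range (thin) of all tested rows. At 24 against 3 months the medians are 1.27 for the members and 0.46 for the other early response genes, and those of the other lists lie near 0.

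Markers of other skin cells differed with age as well. The 7 sebocyte markers summed to 61.6 to 82.8, 20.2 to 28.8 and 20.9 to 26.8 FPKM at 3, 19 and 24 months, with Elovl3, Pparg and Mc5r each at 0 in some library. Scd1 held most of that sum. The 6 endothelial markers summed to 11.8 to 14.2, 9.67 to 10.7 and 5.62 to 7.24 FPKM, with Emcn at 0 in every library and Cdh5 and Kdr at 0 in some. Egfl7 and Ramp2 held most of that sum, and Pecam1 reached at most 0.446 FPKM. The 6 melanocyte markers summed to 37.1 to 45.9, 31.5 to 32.8 and 29.0 to 34.6 FPKM, with Mlana at 0 in some libraries. Mitf, at 20.3 to 31.8 FPKM over the libraries, held most of that sum and overlapped between the ages. The sebocyte, endothelial and melanocyte sums were lower in every older library than in any 3-month library. The 6 fibroblast markers summed to 5.99 to 8.76, 10 to 12.0 and 9.42 to 16.8 FPKM, higher in every older library, with Col3a1, Dcn and Lum at 0 in some. Col1a2 held most of that sum. Col1a1 was lower in every 19-month than in any 3-month library and overlapped between 3 and 24 months, and Pdgfra reached at most 0.388 FPKM. The 10 immune markers summed to 40.1 to 88.7, 30.9 to 69.1 and 46.3 to 82.9 FPKM and overlapped, with Lyz2 at 0 in every 3- and 19-month library. Cd74 held the largest part of that sum in every library. Of the 7 that were tested, 6 had a positive log2 change at 24 against 19 months, with a median of 0.86, 5 at 24 against 3 months, with a median of 0.37, and 0 at 19 against 3 months, with a median of -0.40. Ptprc, Cd3e, Cd3d, Fcer1g and Cd52 had every 24-month library above every 19-month library. Fcer1g, an Fc receptor subunit of myeloid and mast cells, was called in the protein-coding fit, higher at 24 months (5.92 ± 1.36 FPKM) than at 19 months (1.52 ± 0.393 FPKM; adjusted p = 0.00403) and lower at 19 than at 3 months (adjusted p = 0.0373). In bulk RNA, fewer cells of a type and less RNA per cell cannot be told apart, and the part of these cells in the members' values was not tested.

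Rows with a profile close to a member's were sought over the 9 libraries by the root mean square difference of centred log2(FPKM + 1) values, among 13487 rows. Egr1, whose own profile had a root mean square of 0.74 about its mean, was closest to Ecscr (0.27), Gm17057 (0.30), Snora24 (0.30), Sncg (0.31) and Snora31 (0.31). Nr4a2 ranked 7, Ier3 9 and Nr4a1 14 on that list, and Egr2 12918. Nr4a1, with a root mean square of 0.86, was closest to Snora24 (0.32), Ier3 (0.35), Egr1 (0.37), Snora31 (0.38) and Atf3 (0.41), an early response gene of the ATF family, with Ier2 at rank 14, Nr4a2 at 89 and Egr2 at 12733. Ier2, at 0.56, was closest to Gm12389 (0.26), Tulp2 (0.28), Fxyd6 (0.29), the AP-1 gene Fosb (0.29) and Ggt7 (0.30), and Ier3 ranked 12, Egr1 326, Nr4a1 1061, Nr4a2 2499 and Egr2 12131. The profiles share the 9 libraries and any scaling error in them, and small nucleolar RNAs such as Snora24 are shorter than the fragments that FPKM assumes.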

How the data were processed

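The deposited table holds 1 FPKM value per row and library, 37980 rows by 9 libraries; per the submitters' processing notes the authors used TopHat and Cuffdiff on build NCBIM37, with versions, settings, annotation release and strand use not given in the sources used here. Genes that overlap others, also in antisense, are therefore uncertain. Every per-sample column was matched to a library by its label.

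The FPKM values were tested on log2(FPKM + 1) with limma 3.58.1 in R 4.3.3 (trended prior, all 9 libraries in 1 model, age as factor, two-sided) on rows that reached 1 FPKM in 3 libraries or more, with an F test for any age. Fold changes on that scale understate the change of low genes. The code was checked on simulated data. Gene types, transcript lengths and hence fragment numbers came from GENCODE M21, which matched 32916 rows and is on another build, so no gene coordinates are given; promoter windows are RefSeq's. The protein-coding fit leaves out the 36 rows listed at 0 through an age.

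The members, lists and fits were chosen with earlier results of these data known. All members are named; of each other list up to 4 called genes, largest change first, or else the 2 with the smallest p; and for Egr1, Nr4a1 and Ier2 the 5 nearest rows. Alternatives were pseudocount 0.1, no filter, other row sets, a robust prior, median centring, quantile normalisation, a replicate block, only the ages compared, and leaving out each library; the fits of 6 libraries, and those pairing the protein-coding rows with the block or with a library left out, were added after the values were seen. Counting errors cover counting only.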

Additional observations from a re-analysis of the deposited data

How the results depend on the processing

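Ier2 at 19 against 3 months had a log2 change of -0.25 in the 6 aligned libraries and of -0.13 to 0.54 in the fits without a library, against 0.29 in the main fit; apart from it, each tested member kept the sign of its change in every comparison and alternative run. Counts of calls moved more. At 19 against 3 months limma called 40 rows in the main fit, 22 without the filter, 180 in protein-coding rows, 72 with a robust prior and 20 with only the ages compared. At 24 against 3 months it called 29, against 8 without the filter, 442 in protein-coding rows, 0 without the rows listed at 0 (2630 at an unadjusted p under 0.05), 224 with a robust prior and 12 with median centring. At 24 against 19 months it called 7, against 107 in protein-coding rows, 0 without the rows listed at 0 (1504 unadjusted), 27 with a robust prior and 15 with only the ages compared. The 6 aligned libraries gave 52 at 24 against 19 months, and with protein-coding rows 126, 376 and 307 in the 3 comparisons. Leaving out a library gave 9 to 37, 7 to 39 and 7 to 22. Among the fits of all 9 or of the 6 libraries, these called members. At 24 against 3 months 4 were called in protein-coding rows, 2 with a robust prior, 4 in protein-coding rows with the replicate block and 4 in those of the 6 libraries; at 24 against 19 months 2 were called in those of the 6 libraries; for any age 4, 3 and 3 were called in protein-coding rows, with the block and in the 6 libraries. Leaving out each library in the main fit called 0 members throughout, and in protein-coding rows it called 0, 3 to 4 and 0 to 2 in the 3 comparisons and 2 to 4 for any age. The cause was not tested, except that the row sets differ by construction.

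The replicate block gave 9, 13 and 16 calls and 0 members in the main fit, and 253, 158 and 110 calls in protein-coding rows. Deviations of libraries with the same number correlated across genes between -0.197 and 0.187, so the numbers were not taken as pairs and no call was read from the block.

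Fragment numbers were low for Egr3 and Nr4a3, with 0.725 to 5.84 and 0.598 to 3.82 in their lowest libraries. Having 3 libraries an age limits every test.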
